A study of Mus musculus with 6 samples.

Results

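After 4 h in hydrogen peroxide (H2O2), 43 of 52 genes of mitosis were lower than in untreated mouse embryonic fibroblasts, and none passed the test as higher. The 52 genes encode the kinases, cyclins, spindle motors, kinetochore and checkpoint proteins and cytokinesis proteins that carry a cell through division. They were taken as a named list that was chosen with earlier results of these data known, so its counts only describe these genes. The lists of other genes set beside it were chosen in the same way. A gene was measured by the array probes that bear its name or an older symbol of it (Cdc2a for Cdk1, Sgol1 and Sgol2 for shugoshin 1 and 2). Of 17185 genes tested on the arrays these 52 were members, with 91 probes in all and more than 1 probe for 29 of them. The probe with the highest mean log2 signal stood for a gene, and the others served as a check. All 52 were well above background on all 6 arrays, so no member entered the test through a single group.

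The cells were primary murine embryonic fibroblasts (MEFs), which are connective-tissue cells grown from embryos without immortalisation. They were kept in DMEM with serum and were either left untreated (0 h) or exposed to 1 mM H2O2 for 2 h or for 4 h. Each of these 3 groups was read on 2 Agilent arrays of the one-colour kind. The strain, the genotype and the age of the embryos are not given in the sources used here. The labels call the 2 arrays of a group independent experiments without saying what made them so, and p-values measure the spread between such arrays. No untreated cells were taken at 2 h or 4 h, so time in culture and H2O2 cannot be told apart, nor can the place on the slide, which was the same for both arrays of a group.

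A cell enters mitosis when Cdk1, bound to cyclin A or cyclin B, is switched on by Cdc25 phosphatases and supported by Polo-like and Aurora kinases. The spindle checkpoint then holds chromosomes until every kinetochore is attached, after which the anaphase promoting complex, with its activator Cdc20, releases separase and destroys the cyclins. Most of these genes are transcribed late in the cell cycle, by Mybl2 and Foxm1 together with the MuvB complex. The same complex joins p107 or p130 and E2F4 to repress them in resting cells and after p53 raises p21 (Cdkn1a), and it binds a short promoter element called CHR that often lies near a CCAAT box. In RNA from a whole culture, fewer dividing cells and less RNA per dividing cell cannot be told apart.

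Levels are given as log2 of the processed signal relative to the 75th percentile of the same array, and changes are differences of these levels with their standard error (SE, 2 arrays a group, spread shared over all 6). A gene rose or fell when its limma p, adjusted over all 17185 genes, was under 0.05. At 4 h, 43 of the 52 members fell (82.7%), where 18.3% of all genes tested fell. By limma no member rose at 4 h, also at an unadjusted p under 0.05 (0 members), where 24.9% of all genes rose. The only positive change was that of Bub3 (0.14 ± 0.09, adjusted p = 0.273), and it turned to -0.036 with quantile normalization and to -0.13 with spike-in scaling. Differences in change between 1 member and another were not tested. The median change of the members was -0.71, against 0.07 over all genes. It was -0.68 on the first slide and -0.73 on the second, and both 4 h arrays were below both untreated arrays for 48 members and above them for 0, where these shares were 31.2% and 42.1% of all genes.

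At 2 h the picture was smaller and more mixed. Of the 52 members 17 fell (32.7%), where 15.2% of all genes fell, and 1 rose (Birc5), where 23.9% of all genes rose. The median change was -0.15, against 0.12 over all genes, and it was -0.13 on the first slide and -0.16 on the second. Both 2 h arrays were below both untreated arrays for 30 members and above them for 9, and these shares were 27.3% and 48.2% over all genes. With the slide, which carries the replicate number, as a block, 24 members fell at 2 h and 3 rose, and the shares of all genes were then 19.1% and 33.8%. Of all members 36 had a negative and 16 a positive change at 2 h. Scaling by spike-in probes in place of the 75th percentile made all 52 negative, and quantile normalization left 6 positive, so every positive 2 h change given here is relative to the 75th percentile.

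The count of falls at 2 h was 26 with quantile normalization (19% of all genes), 47 with spike-in scaling (53.5%), 11 with no filter on dim probes (6.1%) and 6 with normexp background correction (4.31%). It also moved with single arrays. It was 9 and 8 without the first and the second untreated replicate, and 11 when either of the 2 h arrays was left out, and in these 4 fits 9.28% to 9.53% of all genes fell. The falls of Sgol1, Kif18a, Depdc1b, Mki67, Cdca2, Cdca5 and Sapcd2 held in all 6 such fits. That of Ttk was lost in all 6, and those of Nek2, Sgol2 and Anln in 4. The falls of Plk1, Incenp, Espl1 and Ect2 were lost in 3, that of Cenpf in 2 and that of Aurka in 1. At 4 h, 33 of the 43 falls held in all 6 fits. Bub1 and Tpx2 lost theirs in 5 and Mad2l1 in 4. Cdc2a, Ccnb2, Aurkb and Hmmr lost theirs in 2, and Nuf2, Kif20a and Top2a in 1.

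**Figure D1:**
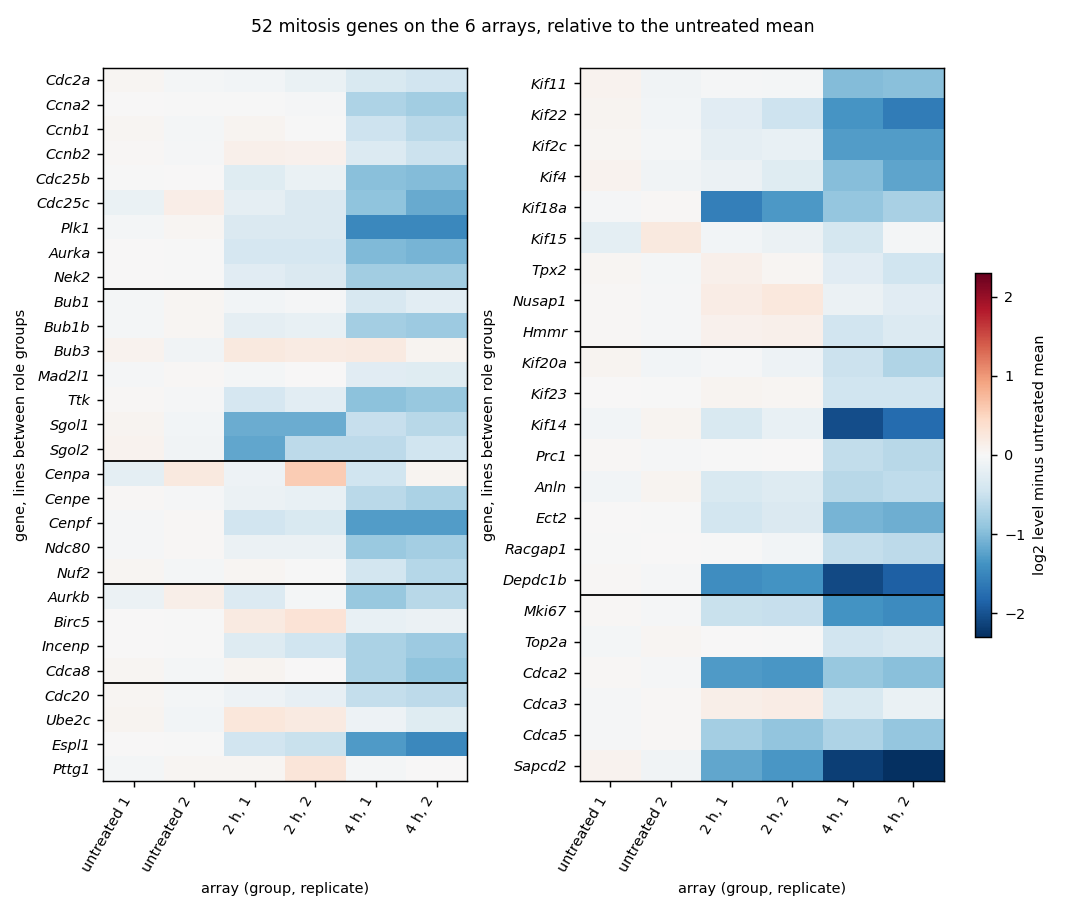
Colour shows the log2 level of each of the 52 genes (rows, grouped by role) on each of the 6 arrays (columns) minus the mean of the 2 untreated arrays. Both 4 h columns lie below both untreated columns for 48 genes, and the strongest blue at 2 h lies on 7 genes: Sgol1, Sgol2, Kif18a, Depdc1b, Cdca2, Cdca5 and Sapcd2.

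The promoters of the members were also read for the letters of the CHR and CCAAT elements. Any part of these letters in the changes on the arrays was not tested. The elements were searched on both strands of a window from 250 bases before to 50 after the annotated start: TTTGAA, its reverse TTCAAA or TTCGAA for CHR, and CCAAT or its reverse ATTGG for the CCAAT box. A CHR and a CCAAT match can share at most 1 letter. RefSeq windows (GRCm38.p6) matched 44 of the 52 members with 48 windows. CHR letters were in 36 of them (75%), against 19.2% of 32851 windows of all genes, and CCAAT letters also in 36 (75%), against 37.4%. Both were present in 64.6%, against 7.52% of all windows. Within 50 bases of the start, CHR letters stood in 66.7% of the members' windows and in 5.31% of all. A match is only a match of letters, and its absence says only that these letters are not in this window.

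The following stretches run from 100 bases before to 50 after the start, 5′ to 3′ in the direction of the gene, with CHR and CCAAT letters in capitals. Plk1, Cenpf and Espl1 are shown as genes that fell by more than 1 log2 unit at 4 h, Cdc20 and Ccnb2 as genes that fell less, and Sgol1 and Kif18a as genes that were lowest at 2 h. Sapcd2 had the largest fall of all members. The windows of Kif18a and Sapcd2 hold neither motif.
Plk1 (chr7:122159335-122159484, plus strand): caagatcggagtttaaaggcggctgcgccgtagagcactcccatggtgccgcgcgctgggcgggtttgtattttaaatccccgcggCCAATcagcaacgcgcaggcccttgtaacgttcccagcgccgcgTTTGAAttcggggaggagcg
Cenpf (chr1:189688037-189688186, minus strand): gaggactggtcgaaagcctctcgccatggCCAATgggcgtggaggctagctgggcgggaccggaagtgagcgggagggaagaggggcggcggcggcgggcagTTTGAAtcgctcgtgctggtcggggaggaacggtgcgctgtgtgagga
Espl1 (chr15:102296193-102296342, plus strand): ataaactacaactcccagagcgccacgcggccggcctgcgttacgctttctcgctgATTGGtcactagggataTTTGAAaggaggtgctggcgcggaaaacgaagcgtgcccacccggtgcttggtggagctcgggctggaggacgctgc
Cdc20 (chr4:118437294-118437443, minus strand): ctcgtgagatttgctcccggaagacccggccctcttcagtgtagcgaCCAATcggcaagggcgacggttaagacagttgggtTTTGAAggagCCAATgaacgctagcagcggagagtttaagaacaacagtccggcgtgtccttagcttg
Ccnb2 (chr9:70421505-70421654, minus strand): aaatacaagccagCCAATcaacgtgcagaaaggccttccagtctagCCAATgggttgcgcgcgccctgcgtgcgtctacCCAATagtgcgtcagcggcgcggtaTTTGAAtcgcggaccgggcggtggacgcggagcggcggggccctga
Sgol1 (chr17:53689266-53689415, minus strand): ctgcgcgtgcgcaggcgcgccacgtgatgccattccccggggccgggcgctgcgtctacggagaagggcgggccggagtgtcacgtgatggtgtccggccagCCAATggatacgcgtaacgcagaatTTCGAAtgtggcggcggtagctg
Kif18a (chr2:109280638-109280787, plus strand): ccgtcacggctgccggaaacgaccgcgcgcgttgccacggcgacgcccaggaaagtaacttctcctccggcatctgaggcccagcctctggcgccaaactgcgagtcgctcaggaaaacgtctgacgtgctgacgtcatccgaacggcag
Sapcd2 (chr2:25371935-25372084, plus strand): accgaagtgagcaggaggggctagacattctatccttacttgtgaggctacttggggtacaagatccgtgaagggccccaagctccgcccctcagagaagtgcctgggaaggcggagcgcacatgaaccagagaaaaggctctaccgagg

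The Ccnb2 stretch shows 3 CCAAT boxes before 1 CHR match. Among the 33 members with CHR letters in a window, 28 fell at 4 h and the median change was -0.80. Among the 11 members with a window but without these letters, 7 fell and the median was -0.54. At 2 h, 10 of the 33 and 4 of the 11 fell. Of all genes tested 18.3% fell at 4 h and 15.2% at 2 h, with medians of 0.07 and 0.12. Falls among all genes with CHR letters are not given here, and the difference between the 33 and the 11 members was not tested. CHR letters were not particular to the members. They were in 63.6% of 22 windows of other spindle and division proteins and in 50% of 14 of condensin and cohesin subunits. Other kinetochore proteins had them in 40% of 25 windows, and the transcription regulators in 29.2% of 24. The DNA replication genes, which are transcribed earlier in the cycle, had CHR letters in 15.2% of 46 windows. The anaphase promoting complex had them in 13.3% of 15, and the inhibitors of mitotic entry and arrest genes in 0 of 14.

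All 9 kinases, cyclins and phosphatases of mitotic entry fell at 4 h, and 3 of them, Plk1, Aurka and Nek2, had fallen at 2 h. These were 100% and 33.3% of the group, where 18.3% and 15.2% of all genes fell. Plk1, the Polo-like kinase that promotes entry, centrosome maturation and cytokinesis, had levels of 3.37 and 3.47 on the untreated arrays, 3.09 and 3.09 at 2 h, and 1.94 and 1.94 at 4 h. The groups did not overlap, and the drop was steepest between 2 h and 4 h. It fell by 0.33 ± 0.06 at 2 h (adjusted p = 0.0143) and by 1.48 ± 0.06 at 4 h (adjusted p = 0.000387), which left 35.8% of the untreated signal. Aurka, the Aurora kinase of the spindle poles, read 3.79 and 3.76, then 3.40 and 3.39, then 2.76 and 2.70. Its falls were 0.38 ± 0.05 at 2 h and 1.04 ± 0.05 at 4 h. Nek2, a kinase that helps centrosomes separate, fell by 0.29 ± 0.06 and by 0.81 ± 0.06.

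None of the cyclins passed the test at 2 h, and all of them fell at 4 h. Ccna2 (cyclin A2) read 3.64 and 3.62 in untreated cells, 3.61 and 3.60 at 2 h, and 2.92 and 2.83 at 4 h. Its change was -0.02 ± 0.06 at 2 h (adjusted p = 0.806) and a fall of 0.75 ± 0.06 at 4 h (adjusted p = 0.00147). Ccnb1 (cyclin B1), the main partner of Cdk1, had untreated levels of 1.99 and 1.89, levels of 2.00 and 1.93 at 2 h, and levels of 1.46 and 1.32 at 4 h. The untreated and 2 h arrays overlapped, with a change of 0.03 ± 0.08 that turned to -0.43 when arrays were scaled by spike-in probes. The 4 h arrays were lower by 0.55 ± 0.08. Other Ccnb1 probes, above background on all arrays, changed by -0.06 and 0.01 at 2 h and by -0.88 and -0.83 at 4 h. Ccnb2 (cyclin B2) showed a change of 0.11 ± 0.08 at 2 h and fell by 0.41 ± 0.08 at 4 h. Cdc2a, the kinase Cdk1 itself, changed by -0.10 ± 0.07 at 2 h and fell by 0.39 ± 0.07 at 4 h.

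The phosphatases that remove the inhibitory phosphates from Cdk1 fell at 4 h as well. Cdc25b read 1.59 and 1.62, then 1.33 and 1.44, then 0.64 and 0.60. Its change of -0.22 ± 0.06 at 2 h passed the test with the slide as a block (adjusted p = 0.0438) and missed it without (adjusted p = 0.0557). It fell by 0.98 ± 0.06 at 4 h. Cdc25c, with levels of -0.60 and -0.31 in untreated cells, fell by 1.04 ± 0.14 at 4 h after a change of -0.27 ± 0.14 at 2 h.

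**Figure D2:**
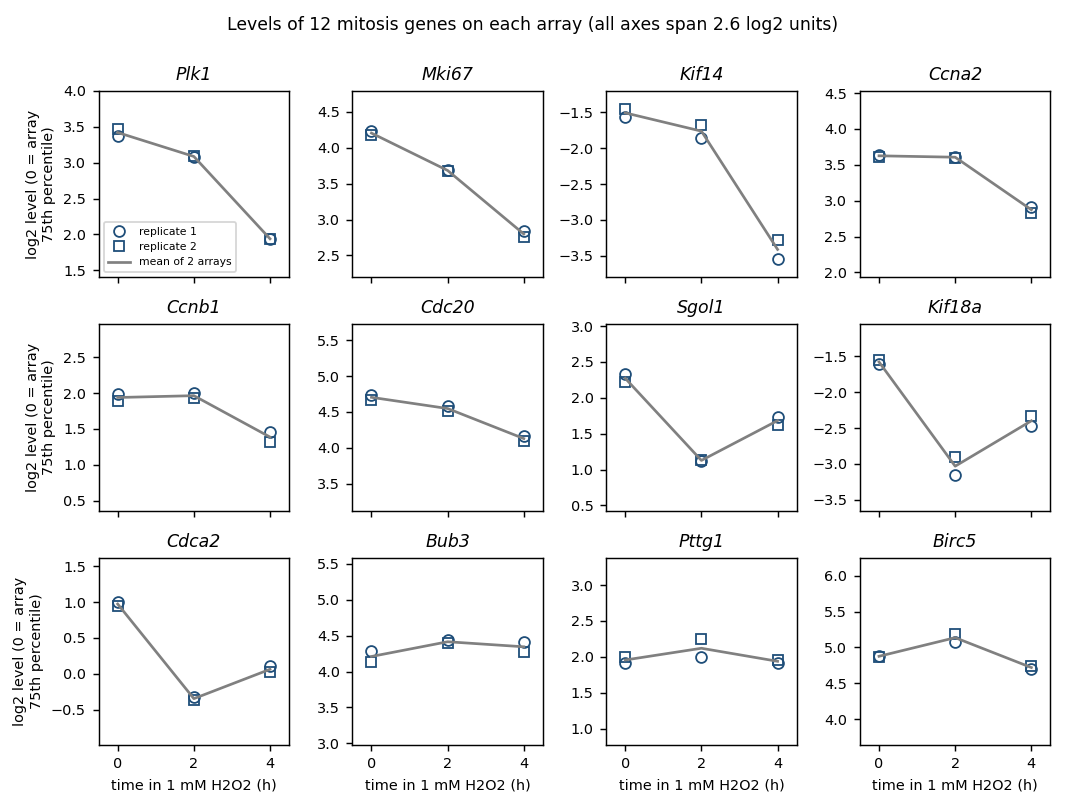
Log2 level relative to the array's 75th percentile against time in 1 mM H2O2 for 12 of the genes, with 1 symbol per array and a line through the mean of 2 arrays; each axis spans 2.6 log2 units. Plk1, Mki67, Kif14, Ccna2, Ccnb1 and Cdc20 were lowest at 4 h, Sgol1, Kif18a and Cdca2 were lowest at 2 h, and the mean changes of Bub3, Pttg1 and Birc5 were at most 0.26 in size.

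Of the 7 genes of the spindle checkpoint and of cohesion protection, 5 fell at 4 h (71.4%) and 3 at 2 h (42.9%). The shares of all genes were 18.3% and 15.2%. Ttk, the Mps1 kinase that starts the checkpoint signal, fell by 0.32 ± 0.07 at 2 h and by 0.91 ± 0.07 at 4 h. Its 2 h call was lost without any 1 of the 6 arrays. Bub1b, the BubR1 subunit of the inhibitor of Cdc20, changed by -0.19 ± 0.06 at 2 h (adjusted p = 0.0665) and fell by 0.80 ± 0.06 at 4 h. Other parts of the checkpoint had smaller changes. Bub1, a checkpoint kinase, fell by 0.31 ± 0.07 and Mad2l1 (Mad2), another part of the Cdc20 inhibitor, by 0.27 ± 0.06 at 4 h, and their changes at 2 h were -0.05 ± 0.07 and -0.02 ± 0.06. Bub3, the adaptor that places Bub1 and BubR1 on kinetochores, passed the test at neither time, with changes of 0.21 ± 0.09 at 2 h and 0.14 ± 0.09 at 4 h. With the slide as a block its 2 h change was a rise (adjusted p = 0.0411). Its probes disagreed: of its 2 other probes that were above background on all arrays, 1 changed by 0.15 and the other by -0.40 at 4 h.

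Of the shugoshins, which shield centromeric cohesin from early removal, Sgol1 had a different time course. Sgol1 read 2.33 and 2.22 in untreated cells, 1.12 and 1.13 at 2 h, and 1.74 and 1.63 at 4 h. The 3 pairs of arrays did not overlap, with the 2 h pair lowest. It fell by 1.14 ± 0.07 at 2 h (adjusted p = 0.000795), to 45.2% of the untreated signal, and was 0.59 ± 0.07 below untreated at 4 h (adjusted p = 0.00449). Sgol2 read -0.47 and -0.64, then -1.74 and -1.15, then -1.15 and -1.01. Its fall of 0.89 ± 0.21 passed the test at 2 h (adjusted p = 0.0313), and the change of -0.53 ± 0.21 at 4 h did not (adjusted p = 0.11). Another Sgol2 probe gave -0.53 at 2 h and -1.27 at 4 h, so the 2 probes ordered the times differently.

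In the centromere and kinetochore group 4 of 5 genes fell at 4 h (80%) and 1 at 2 h (20%). Of all genes 18.3% and 15.2% fell, so the 2 h count was near the share of all genes. Cenpf, a large protein of the outer kinetochore in mitosis, read 2.02 and 2.07 in untreated cells, 1.61 and 1.70 at 2 h, and 0.77 and 0.76 at 4 h. Each pair of arrays lay below the one before. The falls were 0.39 ± 0.06 at 2 h (adjusted p = 0.00996) and 1.28 ± 0.06 at 4 h (adjusted p = 0.000517). Cenpe, a motor that moves chromosomes to the spindle equator, fell by 0.67 ± 0.07 at 4 h. Ndc80 and Nuf2, which pair in the complex that grips spindle microtubules, fell by 0.82 ± 0.06 and 0.54 ± 0.10 at 4 h. For Nuf2 another probe was above background on no array, and the mean of both probes changed by 0.17. At 2 h Cenpe, Ndc80 and Nuf2 changed by -0.15 ± 0.07, -0.14 ± 0.06 and 0.02 ± 0.10, and none of these passed the test.

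Cenpa, the histone H3 variant that marks centromeres, varied more between the slides than between the times. Its levels were 0.09 and 0.54 in untreated cells, 0.20 and 0.90 at 2 h, and -0.14 and 0.38 at 4 h. Replicate 2 was above replicate 1 in every group, the groups overlapped, and the SE of 0.32 was the largest of any member. The changes were 0.24 at 2 h and -0.19 at 4 h. With the slide as a block, 4 h against 2 h was a fall of 0.43 (adjusted p = 0.0266, and 0.376 without the block).

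Of the chromosomal passenger complex, which corrects faulty attachments and then moves to the central spindle, 3 of 4 genes fell at 4 h. That was 75% of the complex, against 18.3% of all genes. Incenp, its scaffold, fell by 0.38 ± 0.08 at 2 h and by 0.79 ± 0.08 at 4 h. Cdca8 (borealin) changed by 0.03 ± 0.09 at 2 h and fell by 0.83 ± 0.09 at 4 h. Aurkb, its kinase, read -0.50 and -0.24, then -0.68 and -0.42, then -1.24 and -1.0. The untreated and 2 h arrays overlapped. Aurkb changed by -0.18 ± 0.15 at 2 h, which passed only with the slide as a block (adjusted p = 0.0276 against 0.386), and fell by 0.75 ± 0.15 at 4 h.

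Birc5 (survivin), the passenger subunit that brings the complex to centromeres and that also has a role in cell survival, was the only member that rose at 2 h. It read 4.88 and 4.87 in untreated cells, 5.08 and 5.19 at 2 h, and 4.70 and 4.74 at 4 h. The 2 h arrays were the highest pair and the 4 h arrays the lowest. The rise was 0.26 ± 0.06 (adjusted p = 0.0321); it turned to -0.05 with quantile normalization and to -0.19 with spike-in scaling, and it lost the call without any 1 of the 6 arrays (adjusted p from 0.0571 to 0.138). At 4 h the change was -0.16 ± 0.06 (adjusted p = 0.107).

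Among the 4 genes of anaphase and sister separation, 2 fell at 4 h (50%) and 1 at 2 h (25%). The shares of all genes were 18.3% and 15.2%. Espl1 (separase), the protease that cuts cohesin, read 0.60 and 0.59 in untreated cells, 0.15 and 0.08 at 2 h, and -0.72 and -0.89 at 4 h. The 3 pairs did not overlap. It fell by 0.48 ± 0.08 at 2 h (adjusted p = 0.0115) and by 1.40 ± 0.08 at 4 h (adjusted p = 0.000709), to 38.0% of untreated. Pttg1 (securin), which holds separase inactive, read 1.92 and 1.99, then 2.00 and 2.24, then 1.91 and 1.96. The untreated and 4 h arrays overlapped, and the changes were 0.16 ± 0.10 and -0.02 ± 0.10 (adjusted p = 0.249 and 0.898). Thus the protease fell, and no change of its inhibitor passed the test.

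Cdc20, the activator of the anaphase promoting complex, read 4.74 and 4.66, then 4.59 and 4.51, then 4.16 and 4.10. Its change of -0.16 ± 0.06 at 2 h passed with the slide as a block (adjusted p = 0.0381) and not without (adjusted p = 0.12), and it fell by 0.57 ± 0.06 at 4 h. Ube2c, the ubiquitin-conjugating enzyme that works with that complex, was 0.23 ± 0.08 above untreated at 2 h and 0.20 ± 0.08 below it at 4 h. Neither change passed (adjusted p = 0.0889 and 0.115), and both did with the block (adjusted p = 0.0271 and 0.0345).

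Of the 9 spindle motors and microtubule proteins, 7 fell at 4 h (77.8%), and only Kif18a fell at 2 h (11.1%). Of all genes 18.3% and 15.2% fell, so the 2 h count was near the share of all genes. Kif22, a motor that pushes chromosome arms, had levels of 4.09 and 3.96, then 3.75 and 3.55, then 2.67 and 2.41. It fell by 1.48 ± 0.13 at 4 h. Kif2c, which takes apart microtubule ends at centromeres, fell by 1.29 ± 0.06, and Kif4, a motor of chromosomes and of the central spindle, fell by 1.10 ± 0.11. The 2 h changes of Kif22, Kif2c and Kif4 were -0.37 ± 0.13, -0.19 ± 0.06 and -0.21 ± 0.11, and each passed only with the slide as a block (adjusted p = 0.0125, 0.0474 and 0.0278, against 0.0777, 0.0607 and 0.203). Kif11, the motor that pushes spindle poles apart, changed by -0.03 ± 0.08 at 2 h and fell by 0.98 ± 0.08 at 4 h, when its levels of -1.51 and -1.47 lay well below the untreated -0.43 and -0.60.

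The proteins that assemble spindle microtubules had smaller changes. Tpx2, which activates Aurora A on the spindle, fell by 0.36 ± 0.09 at 4 h and Hmmr, a spindle protein that also binds hyaluronan, by 0.38 ± 0.07. Nusap1, which bundles microtubules near chromosomes, changed by 0.21 ± 0.07 at 2 h and by -0.19 ± 0.07 at 4 h (adjusted p = 0.0705 and 0.0838). Kif15, a motor that helps to keep spindle poles apart, changed by -0.10 ± 0.19 and -0.22 ± 0.19, and its untreated levels of -1.19 and -0.75 spanned both 2 h arrays.

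Kif18a, which limits the length of kinetochore microtubules, was lowest at 2 h. It read -1.61 and -1.55 in untreated cells, -3.16 and -2.91 at 2 h, and -2.47 and -2.33 at 4 h. The 2 h arrays were the lowest pair, at 36.5% of the untreated signal. Its fall of 1.45 ± 0.11 at 2 h (adjusted p = 0.00121) was the largest of any member at that time, and at 4 h it was 0.82 ± 0.11 below untreated (adjusted p = 0.0056). Another Kif18a probe was above background on no array, and the mean of both changed by 0.03 at 4 h.

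All 8 genes of the central spindle and of cytokinesis fell at 4 h, and 3 fell at 2 h (37.5%). The shares of all genes were 18.3% and 15.2%. Kif14, a motor of the midbody, read -1.56 and -1.45 in untreated cells, -1.85 and -1.67 at 2 h, and -3.54 and -3.28 at 4 h. Most of its drop lay between 2 h and 4 h: the 2 h change was -0.25 ± 0.12 (adjusted p = 0.166, and 0.0327 with the slide as a block), and the 4 h fall was 1.90 ± 0.12 (adjusted p = 0.00101), to 26.7% of untreated. Depdc1b read 0.47 and 0.41, then -0.98 and -0.94, then -1.64 and -1.45. It fell by 1.40 ± 0.09 at 2 h (adjusted p = 0.000762) and by 1.98 ± 0.09 at 4 h (adjusted p = 0.00043). Ect2, an exchange factor needed for the contractile ring, fell by 0.38 ± 0.06 at 2 h and by 1.09 ± 0.06 at 4 h.

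Anln (anillin), which ties the contractile ring together, fell by 0.32 ± 0.07 at 2 h and by 0.60 ± 0.07 at 4 h. Another Anln probe changed by 0.03 at 2 h and by -0.66 at 4 h. The centralspindlin pair and 2 midzone proteins passed the test at 4 h and not at 2 h. Kif23, the motor subunit of centralspindlin, changed by 0.06 ± 0.05 at 2 h and fell by 0.46 ± 0.05 at 4 h. Its partner Racgap1 changed by -0.04 ± 0.05 and fell by 0.58 ± 0.05. Prc1, which bundles midzone microtubules, changed by 0.01 ± 0.06 and fell by 0.60 ± 0.06, and Kif20a, a motor of the midzone, changed by -0.07 ± 0.10 and fell by 0.59 ± 0.10.

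In the last group, proteins of chromosome structure and others linked to mitosis, 5 of 6 genes fell at 4 h and 4 at 2 h. These were 83.3% and 66.7%, against 18.3% and 15.2% of all genes. Mki67, the Ki-67 antigen that coats mitotic chromosomes and is used to count proliferating cells, read 4.23 and 4.18 in untreated cells, 3.69 and 3.68 at 2 h, and 2.83 and 2.76 at 4 h. It fell at each step, by 0.52 ± 0.06 at 2 h (adjusted p = 0.00371) and by 1.41 ± 0.06 at 4 h (adjusted p = 0.000396), and another probe changed by -0.60 and -1.40. Top2a, the topoisomerase that untangles sister chromatids, read 1.39 and 1.49, then 1.44 and 1.44, then 1.00 and 1.06. Its 2 h change of 0.00 ± 0.06 became -0.45 with spike-in scaling and -0.49 in the mean of its probes, of which 1 was above background on no array. It fell by 0.41 ± 0.06 at 4 h. Another Top2a probe, above background on all arrays, changed by 0.18 at 2 h and by -0.62 at 4 h.

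Sapcd2, a protein of spindle orientation and cell polarity, had the largest fall of the 52. Its levels were 1.54 and 1.38 in untreated cells, 0.27 and 0.12 at 2 h, and -0.70 and -0.88 at 4 h. The falls were 1.26 ± 0.11 (adjusted p = 0.00171) and 2.25 ± 0.11 (adjusted p = 0.000528), which left 41.6% and 21.0% of the untreated signal. Cdca5 (sororin), which stabilises cohesin on chromosomes, fell by 0.84 ± 0.09 at 2 h and stayed 0.80 ± 0.09 below untreated at 4 h. Cdca3, a protein that helps to degrade the Wee1 kinase, changed by 0.16 ± 0.09 at 2 h and by -0.26 ± 0.09 at 4 h (adjusted p = 0.207 and 0.0688). The 4 h change of Cdca3 passed with the slide as a block (adjusted p = 0.0389).

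Cdca2 (Repo-Man), which brings protein phosphatase 1 to anaphase chromosomes, was lowest at 2 h. It read 1.00 and 0.95, then -0.32 and -0.37, then 0.11 and 0.02. The 3 pairs did not overlap, and the falls were 1.32 ± 0.06 at 2 h (adjusted p = 0.000414) and 0.91 ± 0.06 at 4 h (adjusted p = 0.00109). Of the other Cdca2 probes, 1 changed by -0.95 at 2 h and by -1.09 at 4 h, and 1, named through another transcript record, changed by 0.21 and 0.33.

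**Figure D3:**
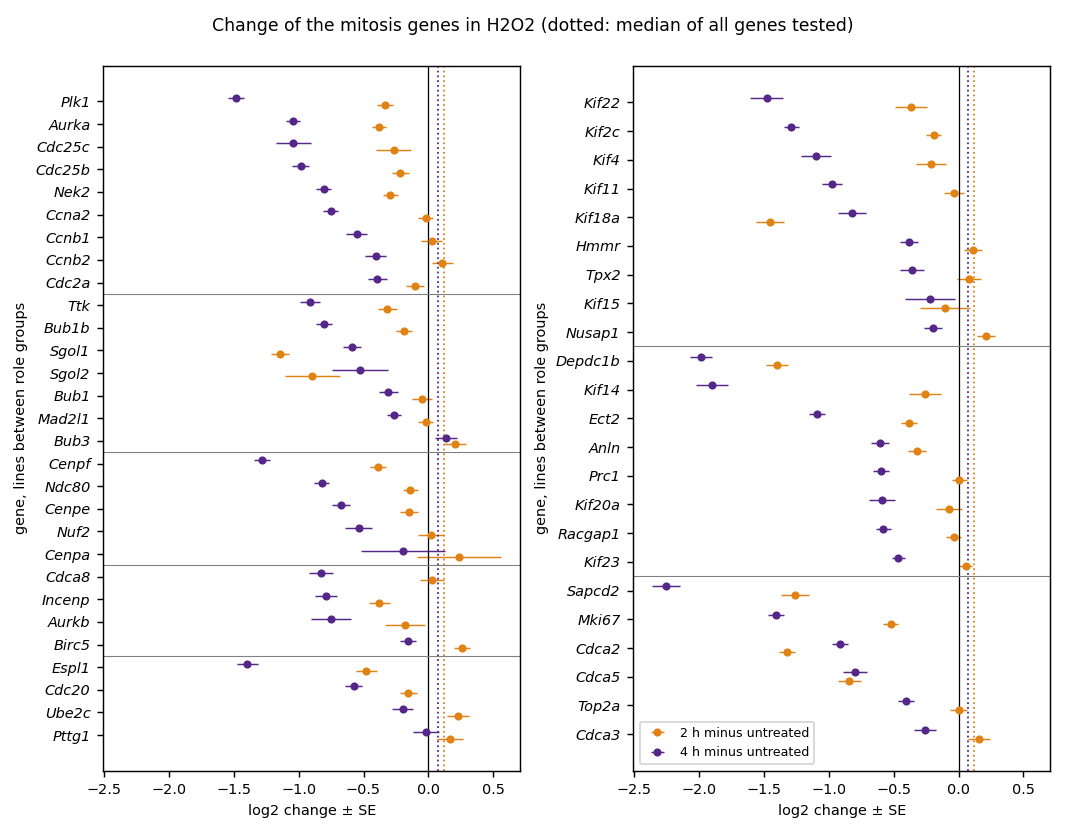
Log2 change ± SE against untreated at 2 h (orange) and 4 h (purple) for the 52 genes, ordered within each role group by the 4 h change; dotted lines mark the median of all genes tested, 0.12 at 2 h and 0.07 at 4 h. The purple point lies to the right of the orange one for Sgol1, Sgol2, Kif18a, Cdca2 and Cdca5, and to its left for the other genes.

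The 2 exposure times were compared directly, since both earlier comparisons share the untreated arrays. From 2 h to 4 h, 41 members fell, where 16.4% of all genes fell, and 3 rose (Sgol1, Kif18a and Cdca2), where 13.4% of all genes rose. The median change was -0.52, against -0.07 over all genes. By their calls, 25 members did not pass at 2 h and fell at 4 h against both other groups. Another 12 fell at 2 h and fell again: Plk1, Aurka, Nek2, Ttk, Cenpf, Incenp, Espl1, Anln, Ect2, Depdc1b, Mki67 and Sapcd2. The largest falls between the times were those of Kif14 (1.65 ± 0.12, adjusted p = 0.00269), Plk1 (1.15 ± 0.06, adjusted p = 0.00178), Kif22 (1.11 ± 0.13, adjusted p = 0.00586) and Kif2c (1.10 ± 0.06, adjusted p = 0.00178).

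Sgol1, Kif18a and Cdca2 rose from 2 h to 4 h, by 0.55 ± 0.07 (adjusted p = 0.00783), 0.63 ± 0.11 (adjusted p = 0.0158) and 0.41 ± 0.06 (adjusted p = 0.0116). These 3 rises were lost without 2 h replicate 1, with adjusted p of up to 0.0736 over the fits that left out 1 array, and another Cdca2 probe changed by -0.14. Ube2c, Nusap1 and Cdca3, which passed at neither time against untreated cells, fell by 0.43 ± 0.08, 0.41 ± 0.07 and 0.41 ± 0.09 from 2 h to 4 h, and Birc5 fell by 0.42 ± 0.06. All 4 of these calls were lost without 2 h replicate 2, and the first 3 also without 2 h replicate 1, with adjusted p up to 0.116. Bub1 and Aurkb, which fell at 4 h, did not pass between the times (adjusted p = 0.0608 and 0.0535) and did with the slide as a block (adjusted p = 0.0251 and 0.00561). The count of 41 falls became 23 without 2 h replicate 1 and 25 without 2 h replicate 2, and 22 falls held in all 6 such fits. The share of all genes that fell was also smaller without either of these 2 h arrays. The count of 41 became 17 with normexp background correction (1.44% of all genes) and 26 with no filter on dim probes (3.85%).

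Transcription regulators of these genes were read beside them. Foxm1, the forkhead activator of late cell-cycle genes, read 1.28 and 1.22, then 0.99 and 0.93, then 0.34 and 0.26. It fell by 0.29 ± 0.06 at 2 h (adjusted p = 0.0254) and by 0.94 ± 0.06 at 4 h (adjusted p = 0.00109), with no overlap between the pairs. Its 2 h call was lost without any 1 of the untreated or 2 h arrays (adjusted p up to 0.123). Mybl2 (B-Myb) changed by -0.10 ± 0.07 at 2 h and fell by 0.80 ± 0.07 at 4 h. Of 21 transcription regulators in the list, 8 fell and 2 rose at 2 h, and 8 fell and 4 rose at 4 h, with medians of -0.10 and -0.17. As shares these were 38.1% and 9.52% at 2 h and 38.1% and 19% at 4 h, against 15.2% and 23.9%, and 18.3% and 24.9%, of all genes. The repressors E2f8 and E2f7 and the MuvB subunit Lin9 fell most at 2 h, by 1.21 ± 0.06, 1.19 ± 0.06 and 0.82 ± 0.08, and stood 0.58, 0.41 and 0.64 below untreated at 4 h. Another E2f7 probe changed by -0.76 at 2 h and by 0.27 at 4 h, and with an E2f8 probe that was above background on 3 arrays averaged in, E2f8 changed by 0.08 at 2 h. Rbl1 (p107) fell by 0.78 ± 0.08 at 4 h. Nfya, a CCAAT-binding subunit, fell by 0.29 ± 0.07 at 2 h and rose by 0.52 ± 0.07 at 4 h. Its 2 h call was lost in 4 of the 6 fits that left out 1 array. Another Nfya probe, above background on all arrays, changed by -0.0079 at 2 h and by 0.85 at 4 h. E2f3 rose by 0.37 ± 0.05 at 4 h, and other E2f3 probes above background on all arrays changed by 1.18 and 1.34.

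Inhibitors of mitotic entry and arrest genes were counted as a list of their own. Of 16 tested, 5 rose (31.2%) and 3 fell (18.8%) at 2 h, and 8 rose (50%) and 3 fell (18.8%) at 4 h. Of all genes 23.9% rose and 15.2% fell at 2 h, and 24.9% rose and 18.3% fell at 4 h. The falls were thus near the share of all genes. Cdkn1a (p21), the inhibitor of cyclin-dependent kinases, read 2.43 and 2.31, then 4.02 and 4.11, then 4.60 and 4.39. It rose by 1.70 ± 0.10 at 2 h (adjusted p = 0.000715) and by 2.13 ± 0.10 at 4 h (adjusted p = 0.000521). Rprm (Reprimo), which holds cells before mitosis, rose by 2.19 ± 0.31 at 4 h after a change of 1.08 ± 0.31 at 2 h (adjusted p = 0.0512). Btg2, an antiproliferative gene, rose by 1.36 ± 0.08 and 1.25 ± 0.08, and Ccng1 (cyclin G1), like Cdkn1a a p53 target, by 0.66 ± 0.06 and 1.05 ± 0.06. Wee1, the kinase that places the inhibitory phosphate on Cdk1, fell by 0.76 ± 0.22 at 2 h (adjusted p = 0.0499) and changed by -0.61 ± 0.22 at 4 h (adjusted p = 0.082). The 2 h call of Wee1 was lost in 5 of the 6 fits that left out 1 array, with adjusted p up to 0.178. Pkmyt1, its membrane-bound relative, fell by 0.39 ± 0.06 at 4 h.

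The rest of the division machinery was counted from lists of genes that are not members. Of 24 other spindle and division proteins 8 fell (33.3%) and 1 rose (4.17%) at 2 h. At 4 h, 16 fell (66.7%) and 2 rose (8.33%), with a median of -0.51. Of all genes 15.2% fell and 23.9% rose at 2 h, and 18.3% fell and 24.9% rose at 4 h. Gsg2 (haspin), the histone kinase that recruits the passenger complex, fell by 1.83 ± 0.08 at 2 h and was 1.32 ± 0.08 below untreated at 4 h. Bora, the Aurora A activator, fell by 1.15 ± 0.06 and 1.35 ± 0.06, and Fam64a fell by 0.42 ± 0.09 and 1.48 ± 0.09. Kif18b and Ccnf (cyclin F) were those that rose at 4 h, by 0.87 ± 0.09 and 0.34 ± 0.09. Gtse1, named after its values were seen, had a larger change of 1.33 ± 0.62 that did not pass (adjusted p = 0.151) and did with the slide as a block (adjusted p = 0.0107). Kif18b, a relative of Kif18a, had changed by -0.23 ± 0.09 at 2 h, and Ccnf had fallen by 0.74 ± 0.09. Leaving out 1 array ended the rise of Ccnf (adjusted p up to 0.13) and the 2 h fall of Fam64a (up to 0.0975).

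Of 27 other kinetochore proteins 6 fell (22.2%) and 3 rose (11.1%) at 2 h. At 4 h, 12 fell (44.4%) and 2 rose (7.41%), with a median of -0.26. The shares of all genes that fell and rose were 15.2% and 23.9% at 2 h, and 18.3% and 24.9% at 4 h. Casc5 (Knl1), the platform of the checkpoint, fell by 1.64 ± 0.14 at 4 h, Cenpl by 1.16 ± 0.06 and Ska1, which tracks microtubule ends, by 1.15 ± 0.08; with a Ska1 probe that was above background on 1 array averaged in, Ska1 changed by 0.46. Cenpl had already fallen by 1.35 ± 0.06 at 2 h. Zwint and Cenpw rose at 4 h, by 1.22 ± 0.06 and 0.56 ± 0.10, but other Zwint probes changed by 0.48 and -0.0047 and another Cenpw probe by 0.04. The Cenpw rise was lost in 2 of the 6 fits that left out 1 array (adjusted p up to 0.0612). Of 16 condensin and cohesin subunits none fell (2 at an unadjusted p under 0.05) and 2 rose (12.5%) at 2 h by limma. At 4 h, 8 fell (50%) and 2 rose (12.5%), with a median of -0.27. The condensin subunits Ncapd3 and Ncapg fell by 0.91 ± 0.12 and 0.72 ± 0.06 at 4 h. The cohesin subunit Stag2 rose by 0.48, a call lost without either untreated array (adjusted p up to 0.0543).

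Of 14 subunits and regulators of the anaphase promoting complex 3 fell and 4 rose at 2 h, and 3 fell and 1 rose at 4 h, with medians of 0.03 and -0.07. These shares (21.4% and 28.6% at 2 h, 21.4% and 7.14% at 4 h) stood beside 15.2% and 23.9%, and 18.3% and 24.9%, of all genes, so the falls were near the share of all genes. Fzr1 (Cdh1), the activator of late mitosis and G1, fell by 1.08 ± 0.08 at 4 h, and Fbxo5 (Emi1), an inhibitor of the complex, by 0.70 ± 0.07. Fbxo5 was lower still at 2 h, by 1.23 ± 0.07. Of 48 DNA replication genes 7 fell (14.6%) and 5 rose (10.4%) at 2 h, so the falls were near the 15.2% of all genes. At 4 h, 20 fell (41.7%) and 4 rose (8.33%). The medians were 0.06 at 2 h and -0.21 at 4 h. Pold1, the catalytic subunit of DNA polymerase delta, fell by 0.84 ± 0.09 at 4 h and the licensing inhibitor Gmnn (geminin) by 0.75 ± 0.06, while its target Cdt1 rose by 0.66 ± 0.06. The share of fallen genes at 4 h was 82.7% for the mitosis genes and 41.7% for the replication genes, and this difference was not tested.

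**Figure D4:**
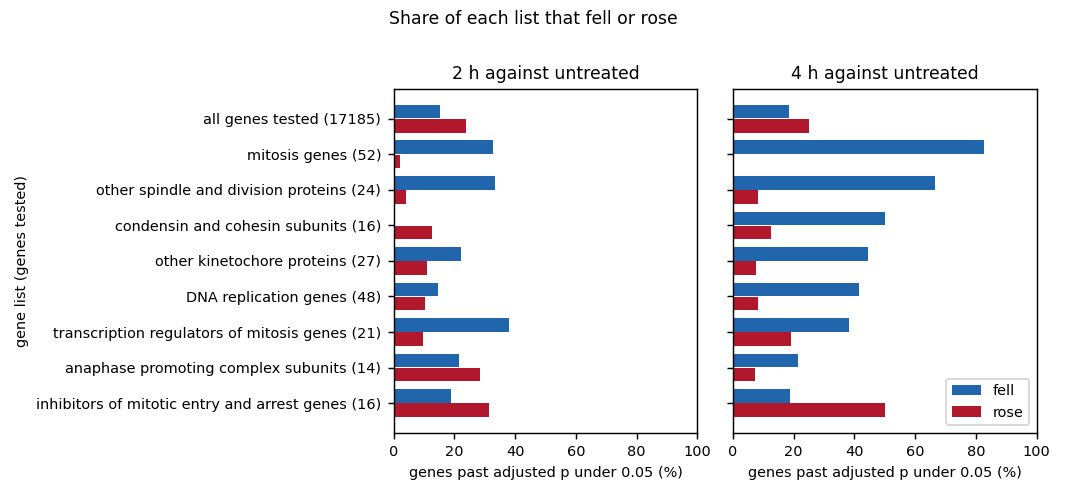
Bars give the percentage of each gene list (number of genes tested in parentheses) that fell (blue) or rose (red) past an adjusted p of 0.05, at 2 h and at 4 h against untreated. At 4 h the blue bar of the mitosis genes reaches 82.7% and that of all genes 18.3%, and the red bar is longer than the blue one for the inhibitors and arrest genes (50% against 18.8%).

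Several array-wide measures stood beside these results. All 15 fibroblast markers were well above background on all 6 arrays. Their summed relative signal was 1373 to 1463 in untreated cells, 1703 to 1747 at 2 h and 1603 to 1744 at 4 h. For other cell types, 4 of 9 endothelial markers were above background on all arrays (Cdh5 and Tie1 on none), with sums of 0.532 to 0.563, 1.06 to 1.21, and 1.05 on both 4 h arrays. Likewise 7 of 8 leukocyte, 4 of 8 epithelial (Epcam and Cldn4 on none) and 4 of 7 muscle markers (Myod1 and Myf5 on none) were above background on all arrays. The sums were 18.7 to 20.2, 22.2 to 22.4 and 21.3 to 22.7 for the leukocyte list. They were 3.12 to 3.48, 4.22 to 4.39 and 3.83 to 4.33 for the epithelial list. For the muscle list they were 4.92 to 7.0, 5.98 to 8.50 and 5.59 to 6.79. Every sum took in all markers of its list, also those near or below background. The 75th percentile of the processed signal, which sets the scale, was 826 to 883 in untreated cells, 675 to 677 at 2 h and 674 to 754 at 4 h. The part of these measures in the changes of the mitosis genes was not tested. Scaling by 7 spike-in probes moved the median change of all genes from 0.12 to -0.33 at 2 h and from 0.07 to -0.19 at 4 h. Since it shifts every gene of an array alike, the median of the members lies 0.27 and 0.78 below that of all genes at 2 h and 4 h under both scalings by construction.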

How the data were processed

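Per the labels, RNA from primary MEFs was labelled with Cy3 and hybridised to 6 one-colour arrays. Per the file headers, the authors scanned them with a G2505B scanner and Feature Extraction 9.5.3.1 (protocol GE1-v5_95_Feb07), which gives a background-corrected fluorescence intensity for each spot. The value table deposited by the authors also holds intensity and equals that processed signal within 0.0005. The deposited intensity was taken here to log2, and the 75th percentile of each array over its 43379 non-control spots was subtracted. Spots flagged as outliers (99 to 149 an array) were left out and repeated spots averaged. Between 57.3% and 68.0% of spots were well above background on an array, and none was saturated. With 2 arrays a group, their number limits the precision.

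Probes were named through a RefSeq table by accession, by symbol or by older symbol. A gene was tested where its probe was well above background in both replicates of any group, with limma 3.58.1 in R 4.3.3 (lmFit and eBayes, two-sided, Benjamini-Hochberg over all genes of a comparison), in 1 fit of all 6 arrays. A probe named Aim1, an older symbol that Aurkb shares with another gene, was left out. No probe coordinate was used, since its genome build is not given in the sources. The members and lists were chosen with earlier results of these data known. Named were all members with a call or disagreeing probes, a set of reference members, Foxm1, Mybl2, Cdkn1a and Wee1, and from each other list up to 3 genes each way with the largest change among those past the test. The script was tested on simulated data.

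Replicate 1 of every group lay on 1 slide and replicate 2 on the other, scanned together. Deviations from the group means correlated by 0.431, 0.475 and 0.389 between groups for arrays of the same number (14819 genes), so the numbers pair the arrays, and a fit with the slide as a block was an alternative. The others were quantile normalization, spike-in scaling, normexp with an offset of 50, no filter or a stricter filter on dim probes, the mean of all probes of a gene, and leaving out each array.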

Additional observations from a re-analysis of the deposited data

Results flagged for a closer look

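By the direct limma test of 4 h against 2 h, the change against untreated cells differed for 44 of the 52 mitosis genes. It also differed for Foxm1, Mybl2 and Cdkn1a, and for further genes of the other lists that are not itemised here. Of 21 transcription regulators 4 fell (19%) and 5 rose (23.8%) in this test. Of 24 other spindle and division proteins 12 fell (50%) and 3 rose (12.5%). Of all genes 16.4% fell and 13.4% rose in this test. The calls of Cdc2a, Mad2l1 and Anln were lost in all 6 fits that left out 1 array. At least 1 such fit also ended those of Ccnb1, Ccnb2, Cdc25c, Cenpe, Nuf2, Birc5, Incenp, Cdc20, Ube2c and Tpx2. The same held for Nusap1, Hmmr, Kif20a, Depdc1b, Top2a and Cdca3, and for the rises of Sgol1, Kif18a and Cdca2. The values are log2 changes from 2 h to 4 h. Among the entry kinases, cyclins and phosphatases they were -0.29 for Cdc2a, -0.73 for Ccna2, -0.58 for Ccnb1, -0.51 for Ccnb2, -0.77 for Cdc25b, -0.77 for Cdc25c, -1.15 for Plk1, -0.66 for Aurka and -0.51 for Nek2. Among the checkpoint genes they were -0.61 for Bub1b, -0.25 for Mad2l1, -0.60 for Ttk and 0.55 for Sgol1. In the kinetochore they were -0.52 for Cenpe, -0.89 for Cenpf, -0.68 for Ndc80 and -0.56 for Nuf2, and in the passenger complex -0.42 for Birc5, -0.41 for Incenp and -0.86 for Cdca8. Of the anaphase genes Cdc20 changed by -0.42, Ube2c by -0.43 and Espl1 by -0.92.

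Among the spindle motors and microtubule proteins the values were -0.94 for Kif11, -1.11 for Kif22, -1.10 for Kif2c, -0.89 for Kif4, 0.63 for Kif18a, -0.44 for Tpx2, -0.41 for Nusap1 and -0.49 for Hmmr. Among the cytokinesis genes they were -0.51 for Kif20a, -0.52 for Kif23, -1.65 for Kif14, -0.60 for Prc1, -0.28 for Anln, -0.71 for Ect2, -0.54 for Racgap1 and -0.59 for Depdc1b. In the last group they were -0.89 for Mki67, -0.41 for Top2a, 0.41 for Cdca2, -0.41 for Cdca3 and -0.99 for Sapcd2. The 3 genes itemised from outside the list were Foxm1 (-0.66), Mybl2 (-0.70) and Cdkn1a (0.43).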

How the results depend on the processing

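Over 13 alternatives, 29 members fell at 4 h, 6 at 2 h (Sgol1, Kif18a, Depdc1b, Cdca2, Cdca5 and Sapcd2) and 16 from 2 h to 4 h under every one. The falls at 2 h (17) numbered 26 with quantile normalization, 47 with spike-in scaling, 6 with normexp background correction, 11 with no filter on dim probes, and 8 to 15 with 1 array left out. The 1 rise at 2 h became 0 under quantile normalization, spike-in scaling, normexp, no filter and each fit without 1 array, and 3 with the replicate block. The replicate block gave 24 falls at 2 h, 45 at 4 h and 44 from 2 h to 4 h, where 19.1%, 22.7% and 23.2% of all genes fell. Among members the block ended no call and added those named above. The median change at 2 h was -0.23 with quantile normalization, -0.61 with spike-in scaling and -0.19 with the mean of all probes. At 4 h it was -0.79 with quantile normalization, -0.98 with spike-in scaling and -0.67 to -0.71 with 1 array left out. The falls from 2 h to 4 h (41) numbered 17 with normexp, 26 with no filter and 23 to 35 with 1 array left out; the 3 rises numbered 0, 1 and 0 to 3. That median was -0.33 with spike-in scaling and -0.51 to -0.55 with 1 array left out. The falls at 4 h ranged from 31 (normexp) to 48 (spike-in scaling), where 4.95% and 36% of all genes fell.

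Spike-in scaling turned the sign of all 16 members that were positive at 2 h and quantile normalization that of 10. Among results past the test in either setting, those turned at 2 h by spike-in scaling, where the median of all genes was -0.33, were Ccnb1 (-0.43), Ccnb2 (-0.35), Bub3 (-0.25), Nuf2 (-0.43), Birc5 (-0.19), Cdca8 (-0.43), Ube2c (-0.23), Tpx2 (-0.37), Nusap1 (-0.24), Hmmr (-0.34), Kif23 (-0.40), Prc1 (-0.45), Top2a (-0.45), Stag2 (-0.11), E2f3 (-0.014) and Pkmyt1 (-0.31). Cenpa (-0.22), Pttg1 (-0.29) and Cdca3 (-0.30) also turned and passed in neither setting. By quantile normalization they were Birc5 (-0.045) and Prc1 (-0.19) at 2 h. Both scalings turned Bub3 at 4 h, which passed under neither (-0.036 with quantile normalization, -0.13 with spike-in scaling). The mean of all probes, which takes in probes near background, turned 6 members at 2 h and 3 at 4 h (Nuf2, Kif18a and Kif15, the last at 0.15 and not past the test). Among results past the test in either setting, these were Top2a (-0.49) and E2f8 (0.084) at 2 h, Nuf2 (0.17), Kif18a (0.031) and Ska1 (0.46) at 4 h, and Nuf2 from 2 h to 4 h (0.030). With 2 arrays a group, a member's SE was 0.051 to 0.324, which limits what changes these arrays could show. The other causes were not tested.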
